A study of Homo sapiens with 24 samples.

Results

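Matrix metalloproteinases (MMPs) and the tissue inhibitors of metalloproteinases (TIMPs) were followed as RNA in MIA PaCa-2 cells, a line derived from a human pancreatic carcinoma, after induction of the transcription factor C/EBPδ. The 10 genes were taken by symbol from the 60675 gene identifiers of the count table, over both cell lines and all 4 time points. They were MMP1, MMP2, MMP3, MMP10, MMP13, MMP14, MMP15, TIMP1, TIMP2 and TIMP3. The C/EBPδ-inducible cells, labelled CEBPD, carried a CEBPD cDNA under a Tet-On promoter, so that doxycycline turns it on, and were a pool of 3 transduced clones. The CTRL cells carried the same construct lacking the cDNA. Both lines had been transduced with lentivirus and both were collected at 0, 8, 24 and 48 h of doxycycline at 2 µg/mL. The labels list the dose at 0 h as well, while the study's design text speaks of cells with and without doxycycline. Each of the 8 groups held 3 wells, which gives 24 libraries. The p values therefore measure the spread between wells of a line and time, and not between independently made lines.

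MMPs are zinc-dependent endopeptidases that cut the proteins of the extracellular matrix. Most are secreted as inactive proenzymes and become active when the prodomain is removed, by plasmin, by another MMP or, for the membrane-type members, by furin inside the cell. Collagenases cut fibrillar collagen, stromelysins cut a wide range of matrix proteins and can activate other MMPs, gelatinases cut denatured collagen and basement membrane collagen, and membrane-type MMPs work at the cell surface. TIMPs bind the active site of MMPs and block it, and TIMP2 also takes part in the activation of pro-MMP2 by MMP14. Only RNA was measured here, and neither protein nor enzyme activity.

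The libraries held between 12731237 and 22598595 counts. CEBPD itself, the gene carried by the construct, lay between 1.32 and 4.43 CPM (counts scaled to library size with the TMM method over all 24 libraries) in CTRL cells. In C/EBPδ-inducible cells it lay between 18.9 and 23.5 CPM at 0 h and between 200 and 322 CPM from 8 h onward. The lines thus differed in CEBPD before doxycycline, by a log2 fold change of 2.44 (SE 0.11, edgeR adjusted p = 2.85e-13). The keratins KRT8 and KRT18, which mark epithelial cells, were present in every library, and the summed level of 8 epithelial markers ran from 2238 to 3064 CPM in CTRL cells and from 175 to 277 CPM in C/EBPδ-inducible cells. In CTRL cells this sum came mostly from KRT8 and KRT18, with medians of 1277 and 992 CPM. Their medians in C/EBPδ-inducible cells were 52.9 and 94.0 CPM. EPCAM and CDH1, markers of the same list, stayed at or below 2.29 and 6.21 CPM. The list did not differ in 1 direction. KRT7 and CDH1 had medians of 1.37 and 2.198 CPM in C/EBPδ-inducible cells and 0.45 and 1.06 in CTRL cells. Between the lines at 24 h, all 8 epithelial markers were tested, and 2 were called higher and 5 lower (21.5% and 25.3% of all genes). Of 6 fibroblast and stellate markers, DCN was at 3 counts or fewer in every library, and the list's sum of 449 to 690 CPM in CTRL cells and 137 to 256 CPM in C/EBPδ-inducible cells came mostly from COL1A2, a fibrillar collagen gene. COL3A1 and COL1A1 went the other way, with medians of 1.11 and 0.76 CPM in C/EBPδ-inducible cells and 0.37 and 0.30 in CTRL cells. PDGFRB had 6 to 31 counts in libraries of C/EBPδ-inducible cells and 0 to 2 in those of CTRL cells. At 24 h, 4 of the fibroblast and stellate markers were tested between the lines, and 3 were called higher and 1 lower (21.5% and 25.3% of all genes). PTPRC and CD3E, which define leukocytes and T cells, were at 3 counts or fewer in all libraries. The other immune markers were counted in every library, CD68 with 10 to 38 counts and CD14 with 2 to 27, and the immune list summed to at most 2.53 CPM. The endothelial list summed to 0 to 0.42 CPM in CTRL cells and 0.43 to 2.72 CPM in C/EBPδ-inducible cells. Of that list, CDH5 had 0 to 8 and 3 to 44 counts in these lines, and PECAM1 and VWF had at most 6 and 3. The part of these markers in the results below was not tested. The 3 libraries of C/EBPδ-inducible cells at 8 h did not stand equally close: library 3, which was also the shallowest, differed from libraries 1 and 2 by 12.3 and 12.5 in chi-square per gene, against 2.34 between the latter. Libraries 1 and 3 of CTRL cells at 8 h differed by 16.7. Between the lines at 8 h, 5 of the 10 genes were called with all libraries, where 7 were tested and 31.8% of all genes tested were called. The number was 5 without library 3 of C/EBPδ-inducible cells, 5 without CTRL library 1 and 4 without CTRL library 3. The CTRL libraries with the same number deviated from their group means together between 8 and 48 h (r of 0.59, 0.12 and 0.22 over the 13714 genes with a mean of at least 1 CPM) and, more weakly, between 0 and 24 h (0.10, 0.10 and 0.09), but not between 0 and 8 h (-0.30, -0.05 and 0.01) or between 0 and 48 h (-0.24, -0.10 and 0.05). For this reason 48 h was also compared with 8 h, a comparison chosen after the data were seen.

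Between genes, levels were compared per length, as CPM per kilobase of the union of a gene's exons. In the 12 CTRL libraries MMP1, the interstitial collagenase, was the highest of the 10 genes, with 284 to 528 CPM per kilobase. It was followed by TIMP1 with 141 to 166 and TIMP2 with 66.0 to 91.3 CPM per kilobase, and these 3 ranges did not overlap. MMP15 (2.90 to 4.78) and MMP10 (2.02 to 5.83) came next and overlapped. MMP13 (0.042 to 1.69) overlapped both MMP14 (0.44 to 0.94) and MMP3 (0.025 to 0.35 CPM per kilobase), while MMP14 and MMP3 did not overlap each other. In the 12 libraries of C/EBPδ-inducible cells the order began with TIMP1 (75.8 to 88.3) and TIMP2 (36.9 to 45.8), whose ranges did not overlap. MMP1 and MMP15 came next and overlapped, with 0.88 to 4.33 and 2.61 to 4.49 CPM per kilobase. MMP14 (0.55 to 1.31), MMP3 (0.27 to 1.14) and MMP10 (0.23 to 0.78) CPM per kilobase overlapped with each other, and MMP13, TIMP3 and MMP2 stayed at or below 0.100, 0.197 and 0.120. In CTRL cells MMP2 and TIMP3 were at the end of the order, with a median of 0.

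**Figure D1:**
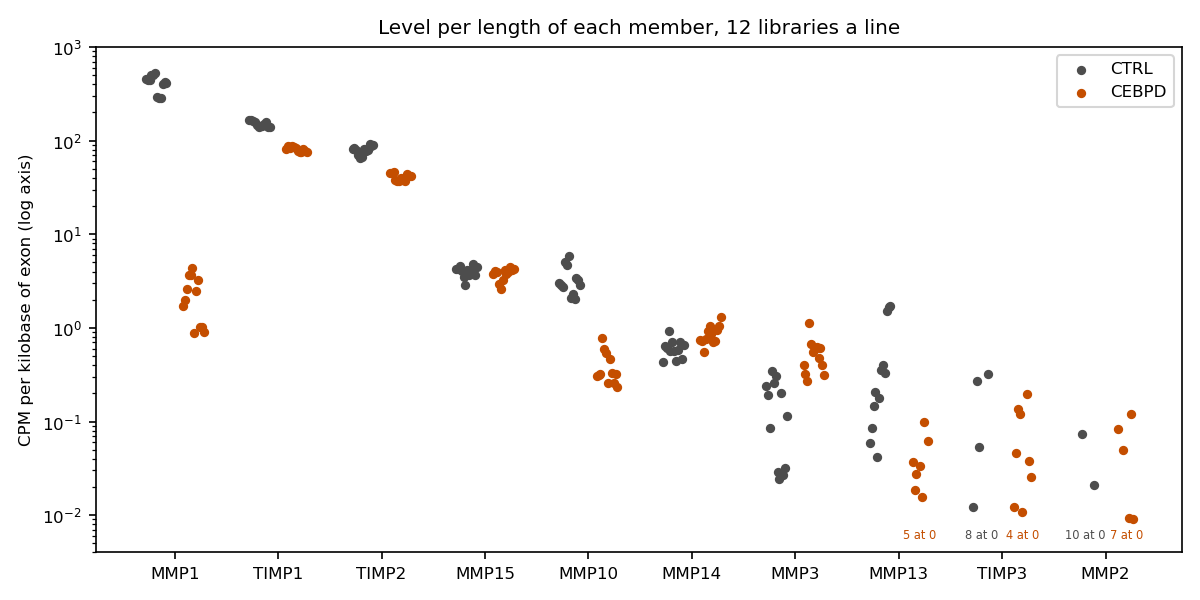
CPM per kilobase of exon (log axis) of each of the 10 genes in the 12 CTRL libraries (grey) and the 12 libraries of C/EBPδ-inducible cells (orange), each point a library, with the number of libraries at a count of 0 written below. MMP1 is the highest gene in CTRL cells. In C/EBPδ-inducible cells its range of 0.88 to 4.33 (median 2.23) overlaps in part that of MMP15, 2.61 to 4.49 (median 3.97).

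The 10 genes were tested with edgeR at an FDR of 0.01 among all genes that passed its filter on low counts. Beside each count stands the share of all genes tested that were called, in either direction and then higher and lower. At 0 h, 6 of the 10 were tested between the lines and 4 were called, all lower in C/EBPδ-inducible cells (MMP1, MMP10, TIMP1 and TIMP2), where 43.9% of all genes were called (20% higher, 23.9% lower). At 8 h, 5 of 7 tested genes were called, with MMP3 now higher and the same 4 lower (31.8% of all genes, 14.3% and 17.4%). At 24 h, 7 of 8 were called, 2 higher and 5 lower (46.9%, 21.5% and 25.3%), and at 48 h again 7 of 8, 2 higher and 5 lower (38.3%, 17.6% and 20.7%). The number of called genes between the lines is thus to be read against these shares of all genes, and their sizes against a median absolute log2 fold change over all genes of 0.25, 0.27, 0.26 and 0.27 at the 4 times. Within CTRL cells, 3 of 6 tested genes were called at 8 h against 0 h, 2 higher and 1 lower (1.7%, 0.905% and 0.793%). At 24 h these were 3 of 7, 1 higher and 2 lower (6.06%, 2.81% and 3.25%), and at 48 h 2 of 7, 1 higher and 1 lower (30%, 15.2% and 14.7%). Within C/EBPδ-inducible cells, 4 of 7 were called at 8 h, 2 higher and 2 lower (30.5%, 14.6% and 15.8%). There, 2 of 7 were called at 24 h, both lower (15.5%, 7.33% and 8.14%), and 4 of 6 at 48 h, 1 higher and 3 lower (38.7%, 19.1% and 19.5%). All comparisons with 0 h in a line share the same 3 libraries of that line at 0 h. The difference between the lines in their change from 0 h, the interaction, was called for MMP1 at 8 h, higher (1.66%, 0.887% and 0.77%), for TIMP2 at 24 h, lower (5.84%, 2.86% and 2.98%), and for MMP1 and TIMP2 at 48 h, both lower (5.54%, 2.83% and 2.72%). Between 8 and 48 h, 4 genes were called in CTRL cells, 2 higher and 2 lower (17.7%, 9.66% and 8.03%), 4 in C/EBPδ-inducible cells, 2 higher and 2 lower (32.8%, 16.7% and 16%), and MMP1 in the interaction, lower (3.5%, 1.78% and 1.71%).

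**Figure D2:**
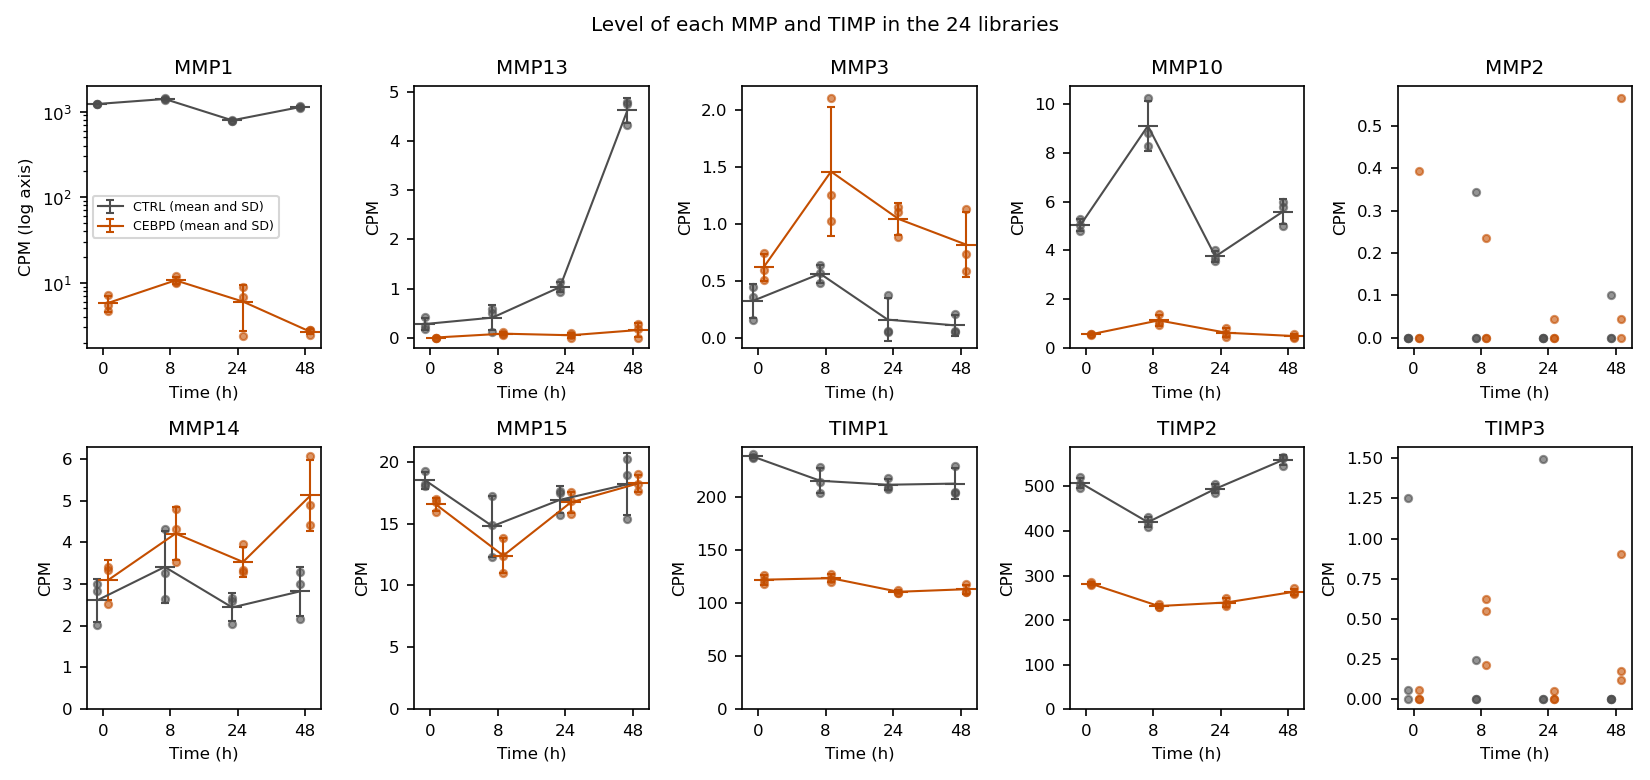
CPM (log axis for MMP1) of the 10 genes at 0, 8, 24 and 48 h (times evenly spaced) in CTRL cells (grey) and C/EBPδ-inducible cells (orange); points are the 3 libraries of a group, and the lines join group means with their SD, except for MMP2 and TIMP3, which show points alone. The 2 lines are separate for MMP1, MMP10, TIMP1 and TIMP2 at every time, and MMP13 reaches 4.34 to 4.80 CPM in CTRL cells at 48 h.

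MMP1 (ENSG00000196611) cuts fibrillar collagens of types I, II and III and lies on GRCh38 chromosome 11, 102789401 to 102798160, on the minus strand. In CTRL cells it gave 1237, 1222 and 1218 CPM at 0 h, 1375, 1390 and 1445 at 8 h, 807, 785 and 777 at 24 h, and 1104, 1152 and 1122 at 48 h. The C/EBPδ-inducible cells gave 4.69, 5.499 and 7.21 CPM at 0 h, 10.1, 10.1 and 11.9 at 8 h, 2.40, 6.73 and 8.91 at 24 h, and 2.78, 2.77 and 2.45 at 48 h. Every CTRL library was thus above every library of C/EBPδ-inducible cells, and the separation was there before doxycycline. At 0 h the log2 fold change between the lines was -7.74 (SE 0.06, edgeR adjusted p = 9.66e-25), a 214-fold lower level in C/EBPδ-inducible cells. It was -7.05 (SE 0.08) at 8 h, -7.01 (SE 0.12) at 24 h and -8.72 (SE 0.06) at 48 h, the last a 420-fold lower level. In bulk RNA, fewer cells that express MMP1 and less MMP1 RNA per cell cannot be told apart. The exons of MMP1 overlap those of WTAPP1 on the other strand, which had 265 counts over the CTRL libraries and 8 over those of C/EBPδ-inducible cells. The strand setting of the counting is not given in the sources used here, so the reads of the 2 genes cannot be told apart there.

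MMP1 also changed over time, and in C/EBPδ-inducible cells it was highest at 8 h and lowest at 48 h by the group means, 10.7 ± 1.05 and 2.67 ± 0.18 CPM (SD, n = 3). At 8 h it rose in both lines, by a log2 fold change of 0.22 (SE 0.03, edgeR adjusted p = 0.00497) in CTRL cells and 0.86 (SE 0.13, edgeR adjusted p = 1.29e-05) in C/EBPδ-inducible cells. At 24 h it was lower in CTRL cells by 0.63 on the log2 scale (SE 0.02, edgeR adjusted p = 1.17e-13), while in C/EBPδ-inducible cells the 3 libraries spread from 2.40 to 8.91 CPM and gave 0.09 (SE 0.25, edgeR adjusted p = 0.848). At 48 h it was lower than at 0 h by 0.13 (SE 0.03, edgeR adjusted p = 0.00422) in CTRL cells and by 1.12 (SE 0.16, edgeR adjusted p = 2.27e-06) in C/EBPδ-inducible cells. The change from 0 h differed between the lines at 8 h (0.67, SE 0.12, edgeR adjusted p = 0.00447) and at 48 h (-0.998, SE 0.14, edgeR adjusted p = 5.60e-05). At 24 h the difference of 0.73 (SE 0.24) did not pass the threshold (edgeR adjusted p = 0.0529), but it did without library 1 of C/EBPδ-inducible cells at 24 h (1.09, edgeR adjusted p = 3.57e-06), and it was 0.33 without library 3 (edgeR adjusted p = 0.501). The 8 h difference was lost under 9 of 18 alternatives, among them the fit without library 3 of C/EBPδ-inducible cells at 8 h (0.61, edgeR adjusted p = 0.0174), and the 48 h difference in the model of all libraries alone. The CTRL calls at 8 and 48 h were each lost under 6 of 12 alternatives. MMP1 fell from 8 to 48 h by 1.97 on the log2 scale in C/EBPδ-inducible cells (SE 0.13, edgeR adjusted p = 4.32e-10) and by 0.32 in CTRL cells (SE 0.04, edgeR adjusted p = 0.000283, lost in the model of all libraries at 0.0314). That difference between the lines, -1.66 (SE 0.09, edgeR adjusted p = 3.67e-08), kept its call under all 18 alternatives, with values from -1.70 to -1.58. Its SE, taken from the F statistic, was below the 0.13 of the change in C/EBPδ-inducible cells alone, and so understates the error.

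MMP13 (ENSG00000137745, chromosome 11, 102942995 to 102955732, minus strand), a collagenase with a preference for type II collagen, was a rare transcript that rose with time in CTRL cells. Its counts in CTRL cells were 3, 4 and 8 at 0 h, 12, 2 and 9 at 8 h, 19, 25 and 20 at 24 h, and 87, 81 and 91 at 48 h. The counts in C/EBPδ-inducible cells were 0, 0 and 0 at 0 h, 2, 1 and 1 at 8 h, 0, 2 and 1 at 24 h, and 5, 0 and 3 at 48 h. The counts of the lines did not overlap at 0, 24 and 48 h, and shared a value of 2 at 8 h. In CTRL cells MMP13 rose from 0.28 ± 0.13 CPM (SD, n = 3) to 4.63 ± 0.25 CPM at 48 h, a log2 fold change of 4.01 (SE 0.26, edgeR adjusted p = 3.84e-07), and against 8 h by 3.44 (SE 0.30, edgeR adjusted p = 5.02e-05). The rise by 24 h, 1.86 (SE 0.38, edgeR adjusted p = 0.00225), was lost under 6 of 10 alternatives, among them the model of all libraries. Against the 3 libraries at 0 in C/EBPδ-inducible cells at 0 h, with a floor of 3 counts per library, the CTRL level was at least 1.77-fold higher. The ratio of CTRL to C/EBPδ-inducible cells was 5.35 at 8 h (exact 95% counting interval 1.83 to 21.3), 21.8 at 24 h (7.15 to 109) and 33.5 at 48 h (16.7 to 78.3), where the intervals cover counting error only. The log2 fold change between the lines was -5.00 at 48 h (SE 0.38, edgeR adjusted p = 1.37e-07), and it was -5.84 without library 1 and -4.29 without library 2 of C/EBPδ-inducible cells. No value is given for the difference between the lines in their change from 0 h, since a fit against a group at 0 counts depends on the prior count.

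The 2 stromelysins differed between the lines in opposite directions. MMP10 (ENSG00000166670, stromelysin-2, chromosome 11, 102770502 to 102780628, minus strand) gave 5.27, 5.03 and 4.81 CPM at 0 h, 8.82, 8.27 and 10.3 at 8 h, 3.67, 4.02 and 3.55 at 24 h, and 5.99, 5.76 and 5.01 at 48 h in CTRL cells. The values in C/EBPδ-inducible cells were 0.53, 0.55 and 0.56 CPM at 0 h, 1.37, 1.04 and 0.94 at 8 h, 0.45, 0.81 and 0.57 at 24 h, and 0.45, 0.56 and 0.41 at 48 h. No library of C/EBPδ-inducible cells reached the lowest CTRL library, and in both lines the 3 libraries at 8 h were the highest of the line. The log2 fold change between the lines was -3.19 (SE 0.20, edgeR adjusted p = 1.02e-10) at 0 h, -2.998 (SE 0.18) at 8 h, -2.61 (SE 0.23) at 24 h and -3.52 (SE 0.21) at 48 h. At 8 h MMP10 rose in CTRL cells by 0.88 (SE 0.12, edgeR adjusted p = 0.00212), and in C/EBPδ-inducible cells the value was 1.03 (SE 0.31, edgeR adjusted p = 0.0114). The difference between these changes, 0.18 (SE 0.28), did not pass the test (edgeR adjusted p = 0.777). By 48 h it had fallen from 8 h in both lines, by 0.71 (SE 0.13, edgeR adjusted p = 0.00248) in CTRL cells and by 1.22 (SE 0.32, edgeR adjusted p = 0.00486) in C/EBPδ-inducible cells. The CTRL rise at 8 h was lost under 4 of 12 alternatives, each CTRL library at 0 h left out among them, the fall from 8 to 48 h in CTRL cells without library 3 at 48 h (edgeR adjusted p = 0.0132), and that in C/EBPδ-inducible cells under 6 of 11.

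MMP3 (ENSG00000149968, stromelysin-1, chromosome 11, 102835801 to 102843609, minus strand) lies next to MMP1 and was higher in C/EBPδ-inducible cells. Its counts in CTRL cells were 8, 6 and 3 at 0 h, 13, 8 and 10 at 8 h, 1, 1 and 8 at 24 h, and 1, 1 and 4 at 48 h. Those in C/EBPδ-inducible cells were 14, 13 and 9 at 0 h, 40, 24 and 13 at 8 h, 22, 24 and 20 at 24 h, and 20, 17 and 10 at 48 h. Scaled to depth, the lines did not overlap at any time, with 0.48 to 0.64 CPM in CTRL cells and 1.02 to 2.10 CPM in C/EBPδ-inducible cells at 8 h. At 0 h the gene was too low to be tested. The log2 fold change between the lines was 1.39 at 8 h (SE 0.34, edgeR adjusted p = 0.00586), 2.64 at 24 h (SE 0.48, edgeR adjusted p = 3.79e-05) and 2.85 at 48 h (SE 0.53, edgeR adjusted p = 0.000518). The 8 h call was lost under 5 of 11 alternatives, DESeq2 among them, while those at 24 and 48 h were kept under all 11. Their sizes depended on library 3 of CTRL cells at each time, which held 8 of the CTRL counts at 24 h and 4 at 48 h, and without it the values were 4.24 (edgeR adjusted p = 5.27e-06) and 3.75 (edgeR adjusted p = 0.000785). Within C/EBPδ-inducible cells MMP3 rose at 8 h by 1.26 (SE 0.33, edgeR adjusted p = 0.00347), a call lost under 4 of 10 alternatives. The difference between the lines in its change from 0 h did not pass the test at any time (at 24 h 1.71, SE 0.73, edgeR adjusted p = 0.161). An exon of MMP3 overlaps WTAPP1 on the other strand as well.

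The promoter of MMP10 is shown because the gene differed between the lines at every time and was highest at 8 h in both. It runs from 250 bases before to 50 bases after the gene's start (RefSeq, GRCh38.p14, chr11:102780579-102780878, minus strand), with the matches to the motifs searched in capitals.
MMP10: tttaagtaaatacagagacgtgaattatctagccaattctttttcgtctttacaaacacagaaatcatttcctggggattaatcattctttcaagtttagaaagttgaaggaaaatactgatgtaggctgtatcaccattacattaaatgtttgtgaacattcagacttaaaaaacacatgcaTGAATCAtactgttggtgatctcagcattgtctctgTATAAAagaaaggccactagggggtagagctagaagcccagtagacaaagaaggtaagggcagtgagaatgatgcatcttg
The first run of capitals, 67 bases before the start, matches the AP-1 motif TGANTCA, and the second, 31 bases before the start, matches the TATA box TATAAA. Of all 35116 promoters of this length, 7.71% hold an AP-1 match and 11.5% a TATA box match on either strand. The C/EBP motif TTGCNNAA (10.5% of all promoters) and the C/EBP-ATF composite TGATGCAA (0.87%), which overlaps the former in its last bases, had no match in this window, nor in those of MMP14, MMP15, TIMP1 and TIMP3. A match is a run of letters and not a measured site, and the lack of one does not show that a site is absent.

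MMP2 (ENSG00000087245, gelatinase A, chromosome 16, 55389700 to 55506691, plus strand) was at the limit of detection. It had a count of 0 in 17 of 24 libraries and 31 counts in all. The highest were 10 counts in library 1 of C/EBPδ-inducible cells at 48 h, and 7 counts each in library 3 of those cells at 0 h and library 1 of CTRL cells at 8 h. A count of 0 allows up to 3 counts, which is 0.13 to 0.24 CPM depending on the library. A difference between lines or times was therefore not detectable at this depth. An unnamed gene model, ENSG00000279030, overlaps an MMP2 exon on the same strand.

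MMP14 (ENSG00000157227, MT1-MMP, a membrane-bound collagenase that activates pro-MMP2, chromosome 14, 22836560 to 22849041, plus strand) gave 2.02, 2.99 and 2.82 CPM at 0 h, 4.33, 2.64 and 3.27 at 8 h, 2.61, 2.05 and 2.66 at 24 h, and 3.29, 2.17 and 3.01 at 48 h in CTRL cells. For C/EBPδ-inducible cells the values were 3.41, 3.35 and 2.53 CPM at 0 h, 3.53, 4.33 and 4.79 at 8 h, 3.96, 3.29 and 3.35 at 24 h, and 4.42, 4.89 and 6.08 at 48 h. The lines overlapped at 0 and 8 h and were separate at 24 and 48 h. The log2 fold change between them was 0.24 (SE 0.19, edgeR adjusted p = 0.289) at 0 h, 0.27 (SE 0.20, edgeR adjusted p = 0.297) at 8 h, 0.53 (SE 0.17, edgeR adjusted p = 0.00865) at 24 h and 0.84 (SE 0.18, edgeR adjusted p = 0.00137) at 48 h. The 24 h call was lost under 10 of 12 alternatives, with adjusted p values up to 0.0951, and the 48 h call without library 3 of C/EBPδ-inducible cells at 48 h (0.71, edgeR adjusted p = 0.0101). In C/EBPδ-inducible cells MMP14 rose from 0 to 48 h by 0.70 (SE 0.15, edgeR adjusted p = 0.000497), a call kept under all 12 alternatives. From 8 to 48 h the value was 0.30 (SE 0.15, edgeR adjusted p = 0.125), and the interaction at 48 h was 0.57 (SE 0.27, edgeR adjusted p = 0.208), so that a difference between the lines in the rise was not shown.

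MMP15 (ENSG00000102996, MT2-MMP, chromosome 16, 58025754 to 58046901, plus strand), another membrane-type enzyme, was not called between the lines at any time. It lay between 12.3 and 20.2 CPM in CTRL cells (median 17.6) and between 11.05 and 19.0 CPM in C/EBPδ-inducible cells (median 16.8). The log2 fold changes between the lines ran from -0.27 (SE 0.13) at 8 h to -0.003 (SE 0.10) at 48 h. At 8 h it gave 12.4, 11.05 and 13.8 CPM in C/EBPδ-inducible cells, against 15.9, 17 and 16.7 at 0 h. That was a fall by 0.44 on the log2 scale (SE 0.09, edgeR adjusted p = 0.000301). In CTRL cells the value at 8 h was -0.29 (SE 0.12, edgeR adjusted p = 0.195), and the difference between the lines of -0.12 (SE 0.15) did not pass (edgeR adjusted p = 0.691). MMP15 rose again in C/EBPδ-inducible cells from 8 to 48 h by 0.57 (SE 0.09, edgeR adjusted p = 2.65e-05).

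TIMP1 (ENSG00000102265, chromosome X, 47582408 to 47586789, plus strand), a secreted inhibitor of most MMPs, was lower in C/EBPδ-inducible cells throughout. In CTRL cells it gave 237, 240 and 237 CPM at 0 h, 228, 214 and 204 at 8 h, 209, 208 and 218 at 24 h, and 229, 204 and 204 at 48 h. The C/EBPδ-inducible cells gave 118, 127 and 121 CPM at 0 h, 128, 123 and 120 at 8 h, 112, 110 and 110 at 24 h, and 118, 111 and 110 at 48 h. The highest of the latter was well below the lowest CTRL library. The log2 fold change between the lines was -0.97 (SE 0.03, edgeR adjusted p = 6.69e-15) at 0 h, -0.80 (SE 0.06) at 8 h, -0.94 (SE 0.04) at 24 h and -0.91 (SE 0.06) at 48 h. Changes over time were small. From 0 to 24 h TIMP1 fell by 0.17 (SE 0.03, edgeR adjusted p = 0.0012) in CTRL cells and by 0.14 (SE 0.04, edgeR adjusted p = 0.00775) in C/EBPδ-inducible cells, and these calls were lost under 3 and 8 of 12 alternatives. The interaction at 24 h was 0.04 (SE 0.05, edgeR adjusted p = 0.734). The promoters of TIMP1 (RefSeq, GRCh38.p14, chrX:47582186-47582485, plus strand) and MMP15 (chr16:58025504-58025803, plus strand) are given beside that of MMP10. They are those of an inhibitor and an MMP with no exact match to the 4 motifs. TIMP1 was lower in C/EBPδ-inducible cells, and MMP15 was not called between the lines.
TIMP1: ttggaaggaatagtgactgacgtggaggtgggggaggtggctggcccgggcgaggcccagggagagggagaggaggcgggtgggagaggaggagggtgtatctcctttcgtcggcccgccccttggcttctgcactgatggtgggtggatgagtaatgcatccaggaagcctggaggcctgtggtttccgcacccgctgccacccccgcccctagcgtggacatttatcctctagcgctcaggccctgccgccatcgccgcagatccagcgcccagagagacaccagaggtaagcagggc
MMP15: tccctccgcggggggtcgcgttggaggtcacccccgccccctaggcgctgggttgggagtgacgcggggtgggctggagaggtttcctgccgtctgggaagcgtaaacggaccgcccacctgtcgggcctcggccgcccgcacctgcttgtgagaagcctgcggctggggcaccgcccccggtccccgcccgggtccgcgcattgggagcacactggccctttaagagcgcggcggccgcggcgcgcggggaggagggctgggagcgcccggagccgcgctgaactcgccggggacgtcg
No letters are in capitals, since no motif matched exactly. Runs close to a motif were not counted, such as tgagtaa in TIMP1 beside the AP-1 motif TGANTCA.

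TIMP2 (ENSG00000035862, chromosome 17, 78852977 to 78925387, minus strand) was the inhibitor whose course differed between the lines. In CTRL cells it gave 506, 521 and 497 CPM at 0 h, 432, 410 and 417 at 8 h, 505, 484 and 495 at 24 h, and 567, 547 and 564 at 48 h. Its values in C/EBPδ-inducible cells were 278, 281 and 285 CPM at 0 h, 236, 229 and 230 at 8 h, 250.2, 237 and 231 at 24 h, and 272, 259.7 and 259 at 48 h. By the group means both lines were lowest at 8 h, though in C/EBPδ-inducible cells the libraries at 8 and 24 h overlapped. At 24 h the range of the CTRL libraries overlapped that of 0 h while that of C/EBPδ-inducible cells did not. The log2 fold change between the lines was -0.86 (SE 0.03, edgeR adjusted p = 1.83e-15) at 0 h, -0.86 (SE 0.05) at 8 h, -1.05 (SE 0.03) at 24 h and -1.09 (SE 0.04) at 48 h. At 8 h TIMP2 fell by 0.25 (SE 0.04, edgeR adjusted p = 0.00847) in CTRL cells and by 0.29 (SE 0.03, edgeR adjusted p = 1.13e-07) in C/EBPδ-inducible cells. The CTRL call was lost under 5 of 12 alternatives, the replicate block and each CTRL library at 0 h left out among them, with adjusted p values up to 0.0784. At 24 h it was still lower in C/EBPδ-inducible cells by 0.23 (SE 0.03, edgeR adjusted p = 7.01e-06), with a CTRL value of -0.04 (SE 0.03, edgeR adjusted p = 0.472). At 48 h against 0 h the CTRL value was 0.13 (SE 0.04, edgeR adjusted p = 0.011), which was not called. That of C/EBPδ-inducible cells was -0.11 (SE 0.03, edgeR adjusted p = 0.00476), a call lost under 6 of 12 alternatives. The change from 0 h differed between the lines by -0.19 at 24 h (SE 0.04, edgeR adjusted p = 0.00376) and by -0.25 at 48 h (SE 0.05, edgeR adjusted p = 0.00117). The 48 h difference kept its call under all 18 alternatives. The 24 h one was lost in 7 of 18, each leaving out 1 library, with adjusted p values up to 0.0262. TIMP2 rose in both lines from 8 to 48 h, by 0.41 (SE 0.05) in CTRL and 0.19 (SE 0.04) in C/EBPδ-inducible cells, and the difference of -0.22 (SE 0.05) missed the threshold (edgeR adjusted p = 0.0196). It passed with the replicate block (-0.22, edgeR adjusted p = 0.00513), in the model of all libraries (edgeR adjusted p = 0.00138), with DESeq2 (adjusted p = 0.0018) and without library 1 of CTRL cells at 8 h (-0.25, edgeR adjusted p = 0.00906). Exons of TIMP2 overlap those of CEP295NL on the same strand and of ENSG00000267601 on the other, so that some reads may have been assigned elsewhere or discarded.

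TIMP3 (ENSG00000100234, chromosome 22, 32801705 to 32863041, plus strand), an inhibitor bound to the extracellular matrix, had 109 counts in all and was at 0 in 12 libraries. Of its 62 counts in CTRL cells, 24 came from library 3 at 0 h and 32 from library 3 at 24 h, while it was at 0 in all 3 libraries at 48 h. In C/EBPδ-inducible cells it gave 0, 0 and 1 counts at 0 h, 4, 12 and 7 at 8 h, 1, 0 and 0 at 24 h, and 16, 4 and 2 at 48 h. The groups with counts in every library were those of C/EBPδ-inducible cells at 8 and 48 h. TIMP3 did not pass the filter in any comparison of 2 groups, and no direction is given.

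**Figure D3:**
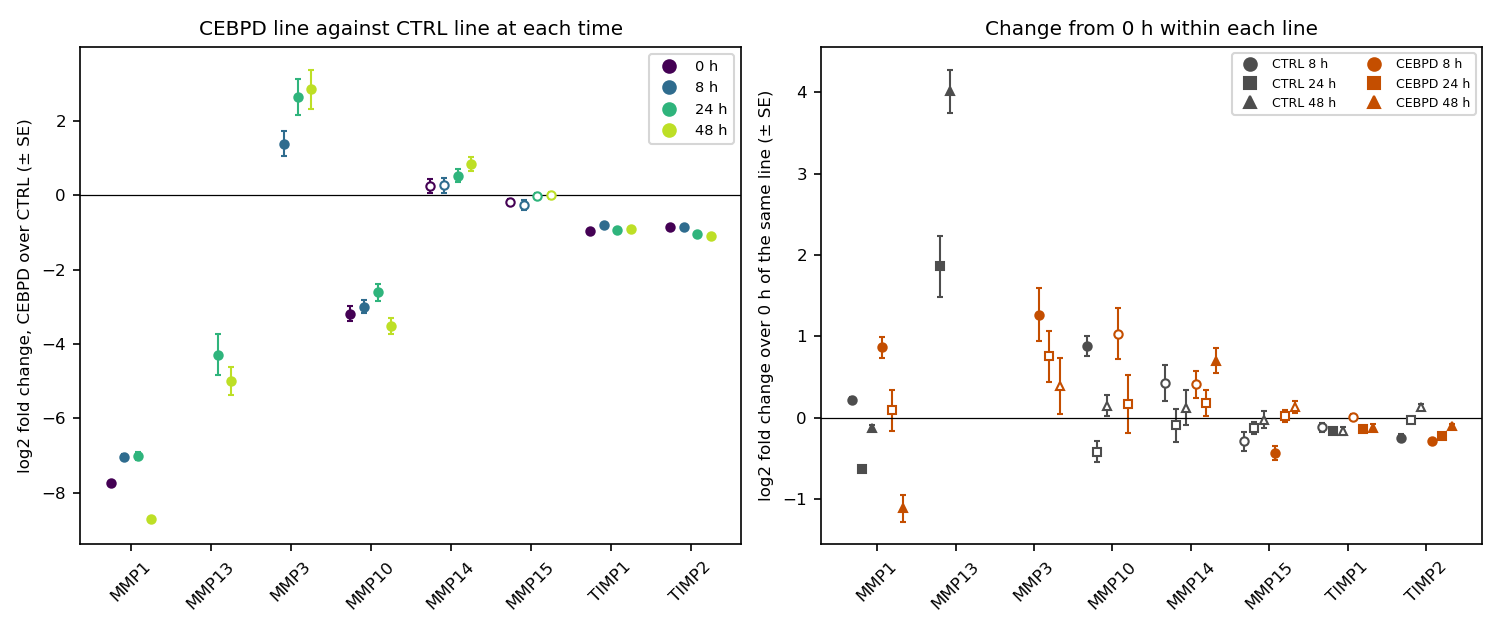
Left, log2 fold change of C/EBPδ-inducible over CTRL cells at 0, 8, 24 and 48 h; right, log2 fold change over 0 h of the same line; points are edgeR estimates with their SE, filled where the adjusted p passed 0.01 and open where not, and genes missing at a time were not tested. MMP1, MMP10, TIMP1 and TIMP2 are below 0 between the lines at all 4 times, and MMP13 in CTRL cells at 48 h is the highest point on the right, at 4.01.

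Summed per length over 23 MMP genes, MMP1 made up 96.8 to 97.8% of the MMP level in CTRL libraries and 8.46 to 33.9% in libraries of C/EBPδ-inducible cells. Without MMP1, the summed level in CTRL and C/EBPδ-inducible cells was 10.5 ± 0.34 and 8.21 ± 0.30 CPM per kilobase at 0 h, 12.9 ± 0.78 and 8.36 ± 0.54 at 8 h, 9.17 ± 0.38 and 8.91 ± 0.54 at 24 h, and 12.6 ± 1.02 and 9.68 ± 0.26 at 48 h (SD, n = 3), with no test made. The summed level of the 4 TIMP genes was 208 to 249.8 and 113 to 133 CPM per kilobase. The ratio of summed MMP to summed TIMP level was 1.86 ± 0.03 at 0 h, 2.43 ± 0.16 at 8 h, 1.32 ± 0.04 at 24 h and 1.79 ± 0.11 at 48 h in CTRL cells (SD, n = 3). It was 0.080 ± 0.002, 0.100 ± 0.006, 0.097 ± 0.008 and 0.088 ± 0.001 in C/EBPδ-inducible cells at the same times. These are ratios of RNA levels and were not tested, since they follow from the genes already given.

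MMP1, MMP3, MMP10 and MMP13 lie in the MMP cluster of chromosome 11, so the protein-coding genes that overlap 1 Mb on either side were listed as well, a set chosen after the values of the 4 members were seen. MMP12, the macrophage elastase between MMP3 and MMP13, was not tested, with 61 counts over the CTRL libraries and 2 over those of C/EBPδ-inducible cells. MMP7 had 55 counts in CTRL cells, of which library 3 at 8 h gave 23 and library 3 at 48 h gave 29, and 8 counts in C/EBPδ-inducible cells. MMP8 had 6 and 25 counts. Among 11 genes that are not MMPs, 9 were tested at 0 h and 2 were called higher and 4 lower (43.9% of all genes were called, 20% higher and 23.9% lower), with log2 fold changes from -1.24 to 1.11. At 24 h, 8 were tested, 1 was called higher and 4 lower (46.9% of all genes, 21.5% and 25.3%), with values from -0.91 (DYNC2H1) to 0.69 (BIRC3). YAP1, a co-activator of the Hippo pathway, gave -0.07 (SE 0.05) at 0 h and -0.06 (SE 0.04) at 24 h and was not called. WTAPP1, which overlaps MMP1 and MMP3 on the other strand and is not among these protein-coding genes, gave -5.03 (SE 0.60, edgeR adjusted p = 7.05e-07) at 0 h and -5.51 (SE 0.66, edgeR adjusted p = 7.28e-08) at 24 h. The fitted differences of MMP1 and MMP10 at both times and of MMP13 at 24 h were larger than those of the 11 protein-coding genes where tested, while MMP3, between MMP1 and MMP13, was higher.

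**Figure D4:**
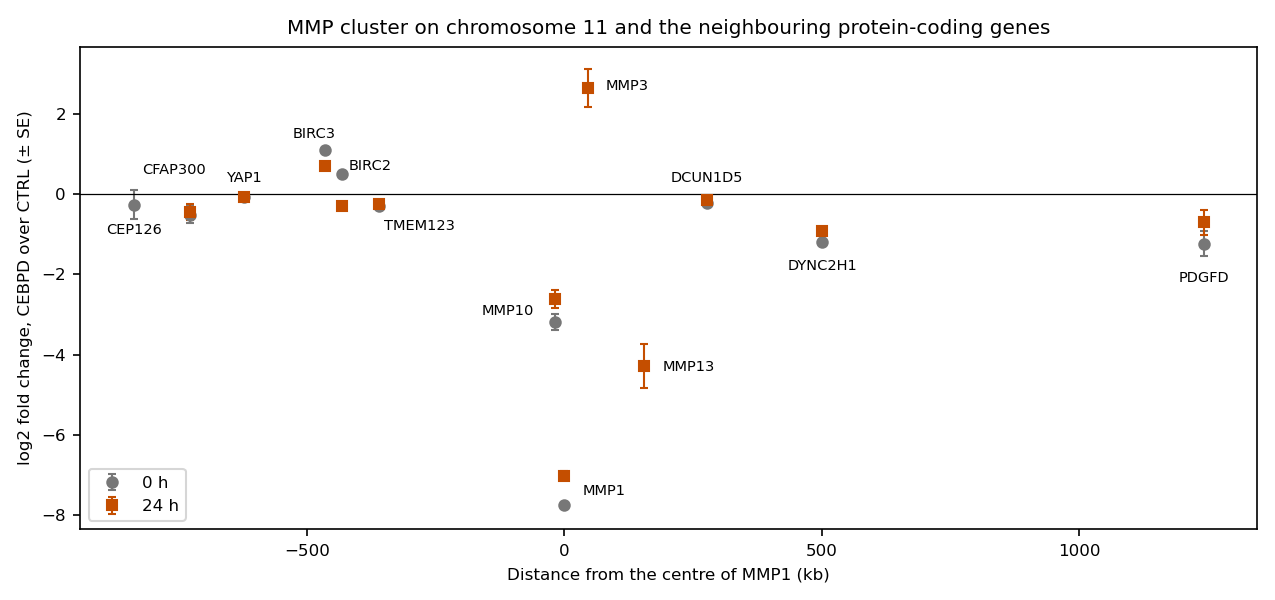
log2 fold change of C/EBPδ-inducible over CTRL cells at 0 h (grey circles) and 24 h (orange squares), with SE, against the distance in kb of each gene's centre from the centre of MMP1, for the protein-coding genes of the chromosome 11 cluster that were tested (WTAPP1 is not drawn). The flanking genes lie between -1.24 and 1.11, while MMP1, MMP10 and MMP13 lie at -7.01, -2.61 and -4.29 and MMP3 at 2.64 at 24 h.

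Of 55 other genes of the pathway, comprising 16 other MMPs, 4 other protease inhibitors, 17 ADAM and ADAMTS proteases, 7 genes of plasminogen activation and 11 activators, cofactors and clearance receptors, 26 were tested between the lines at 24 h. Of these, 9 were higher and 10 lower (46.9% of all genes were called, 21.5% higher and 25.3% lower), with a median log2 fold change of -0.06 against 0.01 over all genes tested. In the interaction at 24 h, 3 were higher and 5 lower of 26 (5.84% of all genes, 2.86% and 2.98%), with a median of -0.07 against -0.0009. Of the 16 other MMPs, 4 were tested at 24 h (2 higher, 1 lower), and MMP26 and MMP27 had no count in any library. MMP17 (MT4-MMP) was higher in C/EBPδ-inducible cells by 1.39 (SE 0.13, edgeR adjusted p = 1.89e-09), with 7.69 ± 0.95 CPM against 2.91 ± 0.29 (SD, n = 3). MMP19 was higher by 1.87 (SE 0.40, edgeR adjusted p = 0.000255), with 1.14 ± 0.27 against 0.30 ± 0.20 CPM. TFPI2, a Kunitz-type inhibitor of serine proteases, was higher by 2.91 (SE 0.55, edgeR adjusted p = 5.77e-05), with 0.77 ± 0.12 against 0.10 ± 0.11 CPM.

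Of 7 genes of the plasminogen system, which makes the plasmin that can activate pro-MMPs, 5 were tested between the lines at 24 h. SERPINE2, an inhibitor of plasminogen activators and other serine proteases, gave 1.48 ± 0.08 CPM in C/EBPδ-inducible cells and 41.8 ± 1.34 in CTRL cells at 24 h, a log2 fold change of -4.82 (SE 0.10, edgeR adjusted p = 1.04e-23). By the interaction at 24 h, PLAU (urokinase) had a lower change in C/EBPδ-inducible than in CTRL cells (-0.30, SE 0.05, edgeR adjusted p = 0.000175), with 105 ± 2.86 CPM at 0 h and 73.9 ± 2.94 at 24 h against 122 ± 1.71 and 107 ± 0.36 in CTRL cells. PLAUR, its receptor, gave 38.4 ± 1.34 and 40.1 ± 1.21 CPM in C/EBPδ-inducible cells and 30.5 ± 0.71 and 22.2 ± 0.78 CPM in CTRL cells, an interaction of 0.52 (SE 0.07, edgeR adjusted p = 1.73e-05). PLAT, the tissue-type activator, gave -2.71 (SE 0.67, edgeR adjusted p = 0.00859) at levels of at most 1.07 CPM at 0 and 24 h.

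Among the proteases and cofactors, the interaction at 24 h was called for ADAM9 (-0.29, SE 0.04), ADAM17 (0.23, SE 0.05) and ADAMTS4 (-0.64, SE 0.11). ADAM17, the shedding protease of TNF, went from 78.6 ± 0.90 to 92.9 ± 1.47 CPM in C/EBPδ-inducible cells. ADAMTS4, an aggrecanase, went from 17.7 ± 1.89 to 12.8 ± 0.71 CPM there and from 17.6 ± 1.31 to 20.1 ± 1.22 CPM in CTRL cells. BSG, a surface protein known to induce MMPs in neighbouring cells, gave 0.15 (SE 0.03, edgeR adjusted p = 0.0058). CD44, which docks MMPs at the cell surface, gave -0.17 (SE 0.03, edgeR adjusted p = 0.000231) and was at 1090 ± 15.6 CPM in C/EBPδ-inducible and 2105 ± 26.0 CPM in CTRL cells at 24 h. Exons of MMP19, TFPI2, PLAU, ADAM9, ADAM17, BSG and CD44 overlap those of genes on the other strand, and reads of such pairs cannot be told apart without strand.

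The genes with the pattern most like each member were sought over the 8 group means of log2(CPM + 1), each centred on its own mean, among 13714 genes with a mean of at least 1 CPM. Likeness is the root mean square difference of the centred means, and 6 members whose means spanned over 1 were used. For MMP1 the closest genes were ANK3 (0.59), ALDH1A1 (0.78) and HOXB9 (0.93), each of them high in CTRL and low in C/EBPδ-inducible cells. For MMP10 they were SMAGP, SCG2 (both 0.25) and AKAP6 (0.26), and for MMP13 they were HID1 (0.15), FUCA1 (0.29) and FAM20C (0.31). For TIMP1 they were CD59, HAUS5 and GOLM1, all at 0.04. For TIMP2 they were ENSG00000277534 (0.07), NPTX1 and MATN2 (both 0.08), and for MMP3 they were ABTB2 (0.08), RFFL (0.09) and WIPI1 (0.10).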

How the data were processed

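RNA was sequenced from 24 libraries of MIA PaCa-2 cells, 3 wells for each of 2 lines at 4 times. Per the labels and the study's methods, total RNA was depleted of ribosomal RNA, and the authors trimmed the reads with Trimmomatic (0.36 in the submitters' processing notes), aligned them to GRCh38 with HISAT2 (2.3.4.3 in those notes) and assigned them to genes with HTSeq. The study's methods name other versions of Trimmomatic and HISAT2 than those notes. Deposited values are whole-number read counts per gene, neither normalized nor filtered. The strand setting is not given in the sources used here. Identifiers were matched to GENCODE release 44 on GRCh38 (56558 of 60675).

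After filterByExpr and TMM scaling, edgeR 4.0.16 (R 4.3.3) fitted a quasi-likelihood model to the libraries of each comparison, with two-sided p values adjusted by the Benjamini-Hochberg method over all genes tested and a threshold of 0.01. The comparisons were the lines at each time, each time against 0 h within a line, the interaction of line and time, and, added after the data were seen, 48 h against 8 h. The SE is the estimate divided by the square root of the F statistic, and the error bars of log2 fold changes in the figures are this SE. It can understate the error at large fold changes. For MMP1 from 8 to 48 h it was 0.09 in the interaction but 0.13 in C/EBPδ-inducible cells alone. Alternatives were DESeq2 1.42.0, RLE size factors, no filter, a minimum count of 10 per library, 1 model for all 24 libraries, a replicate block, a threshold of 0.05 and leaving out each library. The fits were also run on data simulated from their own dispersions. That run held no fold change as large as that of MMP1 between the lines, and no result here rests on it. Floors are 3 counts per library, and intervals cover counting error only. No 2 replicates agreed within sampling noise (chi-square per gene from 1.66 to 16.7).

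The members, lists and tests were chosen with earlier results of these data known. All 10 members are named; of the 55 pathway genes, those called in the interaction at 24 h or called between the lines at 24 h with an absolute log2 fold change over 1 are named. Promoters were matched for 5 of the 10 members (MMP10, MMP14, MMP15, TIMP1 and TIMP3).

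The replicate numbers were checked for pairing by correlating deviations from the group means over genes. Over the genes tested, r was 0.12, 0.13 and 0.14 between CTRL cells at 0 and 24 h, so the labels' numbers were taken to pair these, and the block changed no call of the 10 genes there. Between CTRL cells at 8 and 48 h, r was 0.413, 0.0808 and 0.133 over the genes tested in that comparison and 0.399, 0.153 and 0.188 over those tested in the interaction, so whether every pair passed 0.1 depended on the genes used, and the blocked value stands beside the call it changed. In no other pair of groups compared was r over 0.1 in all 3 pairs.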

Additional observations from a re-analysis of the deposited data

Results flagged for a closer look

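For 2 of the 10 genes the change over time differed between the lines by the interaction test. Of all genes tested, 1.66%, 5.84% and 5.54% were called in the interactions at 8, 24 and 48 h, and 3.5% in that of 48 h against 8 h. MMP1 changed from 0 to 8 h by 0.67 more on the log2 scale in C/EBPδ-inducible than in CTRL cells (edgeR adjusted p = 0.00447), a call lost under 9 of 18 alternatives. It was higher at 8 h in 3 of 3 libraries of either line than in any library of that line at 0 h. From 0 to 48 h the difference was -0.998 (edgeR adjusted p = 5.60e-05), a call lost in the model of all libraries. From 8 to 48 h it was -1.66 (edgeR adjusted p = 3.67e-08), a call kept under all 18 alternatives. There, all 3 libraries of C/EBPδ-inducible cells at 48 h were below all 3 at 8 h. TIMP2 differed by -0.19 from 0 to 24 h (edgeR adjusted p = 0.00376), a call lost under 7 of 18 alternatives. From 0 to 48 h it differed by -0.25 (edgeR adjusted p = 0.00117), a call kept under all 18. All 3 libraries of C/EBPδ-inducible cells at either time were below all 3 at 0 h. In CTRL cells all 3 libraries at 48 h (547 to 567 CPM) were above all 3 at 0 h (497 to 521 CPM). The 48 h difference thus held a CTRL value of 0.13, not called, beside one of -0.11 in C/EBPδ-inducible cells. Groups of 3 libraries were not searched for outlying samples.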

How the results depend on the processing

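Of 54 calls of the 10 genes over the 16 comparisons, 35 were kept under every alternative, 19 were lost under at least 1, and 0 turned direction. With a minimum of 10 counts in every library, 4 genes were called between the lines at 24 h and 4 at 48 h, since MMP3, MMP10 and MMP13 were no longer tested in one or both. With the replicate block, 0 genes were called in CTRL cells at 8 h, 1 at 48 h and 1 in C/EBPδ-inducible cells at 24 h; DESeq2, no filter and the model of all libraries also gave 1 in the latter. In CTRL cells, the model of all libraries gave 1 at 24 h, and no filter and an FDR of 0.05 each gave 4 at 48 h. The model of all libraries gave 2 in C/EBPδ-inducible cells at 48 h, and 0 and 1 in the interactions at 8 and 48 h. No filter gave 2 in the interactions at 8 and 24 h. For the interaction of 48 h against 8 h, DESeq2, the model of all libraries, the block and an FDR of 0.05 each gave 2. Leaving out 1 library gave 4 to 4, 4 to 5, 6 to 6 and 6 to 7 genes between the lines at 0, 8, 24 and 48 h, 0 to 3, 1 to 3 and 1 to 3 in CTRL cells at 8, 24 and 48 h, 4 to 5, 1 to 2 and 2 to 4 in C/EBPδ-inducible cells, and 0 to 1, 0 to 2 and 2 to 3 in the interactions. From 8 to 48 h it gave 4 to 4 in CTRL cells, 3 to 4 in C/EBPδ-inducible cells and 1 to 2 in the interaction. Among the values given in the text for the 10 genes, directions turned only for ones that had not been called: TIMP2 in the interaction at 8 h was 0.0066 with DESeq2, 0.0039 with RLE scaling and -0.032 to 0.0080 with 1 library left out, MMP10 there was -0.0019 to 0.27, and MMP1 in C/EBPδ-inducible cells at 24 h was -0.32 to 0.45. MMP15 between the lines was -0.076 to 0.016 at 24 h and -0.11 to 0.074 at 48 h with 1 library left out, 0.0095 at 48 h with the replicate block, and -0.23 to 0.015 in the interaction at 8 h. The cause of these changes was not tested. Over all genes, 259 were called in CTRL cells at 8 h, against 410 with DESeq2, 843 without a filter, 1229 in the model of all libraries, 87 with the block, 723 at an FDR of 0.05, and 774 without CTRL 8 h library 1. In CTRL cells at 24 h 921 were called, against 582 in the model of all libraries and 1766 at an FDR of 0.05. In C/EBPδ-inducible cells the model of all libraries gave 3127 against 4693 at 8 h, and an FDR of 0.05 gave 3694 against 2407 at 24 h. The interaction at 8 h gave 269, against 441 with DESeq2 and with the model of all libraries, 936 without a filter, 162 with the block, 833 at an FDR of 0.05 and 1196 without CTRL 8 h library 3. At 24 h it gave 948, against 603 in the model of all libraries and 1649 at an FDR of 0.05, and at 48 h 904, against 1666. From 8 to 48 h CTRL cells gave 2736, against 5381 in the model of all libraries, 5041 with the block and 4802 at an FDR of 0.05, and the interaction 574, against 1120 without a filter, 1380 in the model of all libraries, 994 with the block and 1504 at an FDR of 0.05. Of the calls in CTRL cells at 8 h, 53.3% were higher with TMM, 48% with RLE scaling and 38.3% with DESeq2, and in the interaction at 8 h 53.5%, 61.5% and 63.9%. Depth limits MMP2, TIMP3, MMP3 and, in C/EBPδ-inducible cells, MMP13.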

Other observations

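Several scarce genes had counts that stood out, as high or as low, in single CTRL libraries that shared a replicate number. TIMP3 had 24 counts in library 3 at 0 h and 32 in library 3 at 24 h, and at most 5 in the other CTRL libraries. MMP7, matrilysin, had 23 counts in library 3 at 8 h and 29 in library 3 at 48 h, and at most 2 elsewhere in CTRL cells. THBS1, thrombospondin-1, which binds MMPs and activates TGF-β, had 35 and 33 counts in library 3 at 0 and 24 h, 107 and 63 in library 1 at 8 and 48 h, and at most 8 in the others. EPCAM had 1 and 0 counts in library 1 at 8 and 48 h and 17 to 34 in the other CTRL libraries. These genes were chosen after their values were seen, and no test was made.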
